A study of Mus musculus with 26 samples.

Results

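The endoplasmic reticulum (ER) stress chaperones described here are 10 mouse genes: Hspa5, Hsp90b1, Calr, Pdia4, Dnajb9, Sdf2l1, Herpud1, Ddit3, Creld2 and Manf. They were chosen by symbol, through the Ensembl gene identifiers of the deposited values. All 10 were found among the 16322 genes listed for tumours and among the 14131 listed for sorted cells, which together hold 17516 genes. Ddit3 encodes the transcription factor CHOP and is not itself a chaperone. It belongs to the same stress response and is kept in the group under that rule.

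Mice of the KPC model, which is engineered to develop pancreatic cancer, received GS9820, an inhibitor of the p110δ isoform of PI3K, or vehicle. RNA was sequenced from 5 whole tumours of mice on GS9820 for 14 days and 7 whole tumours of vehicle mice. It was also sequenced from myeloid cells sorted from the spleens of tumour-bearing KPC mice: 4 monocyte and 4 PMN libraries after 14 days of GS9820, and 3 monocyte and 3 PMN libraries from vehicle mice. PMN stands for polymorphonuclear cells, the neutrophil lineage. The sample titles also mark every PMN library as low and every monocyte library as high. The titles do not say in what, and this mark coincides with cell type. Every animal carried the KPC background, so no group comes from a healthy mouse. Age, the KPC alleles and the promoter that drives them are not stated in the labels, and no day of treatment is given for vehicle. The labels do not say whether libraries of one group came from separate animals, so p-values measure the spread between these libraries, which may in part be technical.

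Proteins that enter the secretory pathway are folded in the ER by chaperones and by enzymes that form disulfide bonds. When unfolded protein accumulates, the sensors IRE1, PERK and ATF6 start the unfolded protein response. ATF6 and XBP1, the factor made through IRE1, raise the chaperone genes, and PERK raises translation of ATF4, which induces CHOP. Pancreatic acinar cells, which make digestive enzymes, and plasma cells carry a large ER and high chaperone levels. In myeloid cells the granules of neutrophils are filled with secretory proteins early in development.

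Promoter sequences from RefSeq (GRCm38.p6, 250 bases before to 50 bases after the start) matched 9 of the 10 members, and Manf was not matched. Both strands were searched for the ER stress response element ERSE (CCAAT, 9 bases of any kind, CCACG), which ATF6 binds together with NF-Y, for ERSE-II (ATTGG, 1 base of any kind, CCACG), for the core of the unfolded protein response element UPRE (TGACGTG) and for the ATF4-type element CARE (TGATG, 1 base of any kind, AAT). ERSE was found in 4 member promoters, those of Hspa5, Calr, Hsp90b1 and Creld2, and in 39 of all 32817 promoters (0.119%). They are shown because ERSE is the element found in the largest number of member promoters, 4 of the 9 matched. Capitals mark the element, and each strand is printed so that the element reads CCAAT first.
Hspa5, chr2:34772020-34772048, plus strand: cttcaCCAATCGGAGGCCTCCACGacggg
Calr, chr8:84847070-84847098, plus strand (gene on minus): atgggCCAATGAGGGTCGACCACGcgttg
Hsp90b1, chr10:86705633-86705661, minus strand (gene on minus): caagcCCAATCGCAAGGAGCCACGcttcg
Hsp90b1, chr10:86705528-86705556, plus strand (gene on minus): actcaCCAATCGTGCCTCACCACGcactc
Creld2, chr15:88819515-88819543, minus strand (gene on plus): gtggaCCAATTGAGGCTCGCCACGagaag
The element lay 65 to 47 bases before the start in Hspa5, 162 to 144 in Calr and 126 to 108 in Creld2. In Hsp90b1 the 2 copies lay 212 to 194 and 107 to 89 bases before the start, on opposite strands.

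Of the other elements, ERSE-II was found in the promoter of Herpud1 and in 12 of all 32817 promoters (0.0366%). The UPRE core was found in Hspa5 and in 660 of all promoters (2.01%). No member promoter held CARE, which 317 promoters (0.966%) hold. These are matches of letters, shown with the element in capitals.
Herpud1, ERSE-II, chr8:94386372-94386392, plus strand: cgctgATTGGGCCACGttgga
Hspa5, UPRE core, chr2:34771928-34771944, plus strand: agcaaTGACGTGagttg
Sdf2l1, Pdia4, Dnajb9 and Ddit3 held no match to any of the elements within the window.

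The values are those deposited, on a log2 scale that the authors call log2 RPKM, so a difference of 1 is a change of 1 doubling. Within tumours, and within sorted cells, the libraries share nearly the same distribution of values. Depth is unknown, and tumours and sorted cells were compared only within their own set. Differences were tested with limma across all genes kept, 16296 in tumours and 13968 in sorted cells, and a gene was called at a Benjamini-Hochberg adjusted p under 0.05. All 10 members were kept in both sets. Fewer cells of a type and less RNA per cell cannot be told apart in these bulk samples.

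Some libraries stood apart. Vehicle tumour 1 had a mean log2 value of 3.67 over 8 carcinoma and duct epithelium genes, against 6.77 to 9.06 in the other tumours. GS9820 tumour 3 had a mean of 11.61 over 6 hepatocyte genes, which reached at most 5.56 in vehicle tumours. In PMN, Cxcr2, a neutrophil receptor, was at 12.12 to 12.40 under GS9820 and 11.96 to 12.35 under vehicle. Monocytes held less Cxcr2 (5.70 to 7.79 under GS9820 and 4.93 to 8.22 under vehicle). Ccr2, a receptor of inflammatory monocytes, was at 11.35 to 11.79 in GS9820 monocytes against 7.53 to 8.37 in GS9820 PMN, and at 10.54 to 11.99 in vehicle monocytes against 6.85 to 9.09 in vehicle PMN. Monocyte libraries still held mature neutrophil transcripts, with a mean over 11 genes of 9.18 to 10.34 under GS9820 and 8.75 to 11.02 under vehicle, against 12.28 to 12.64 and 12.41 to 12.60 in PMN.

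The first comparison asked how the members differ between the sorted myeloid populations. Splenic monocytes held more mRNA than PMN of 6 members and less of 1, in GS9820-treated and in vehicle mice alike. Hspa5, Hsp90b1, Calr, Pdia4, Sdf2l1 and Manf were higher in monocytes, Ddit3 was lower, and Dnajb9, Herpud1 and Creld2 were not called. Of all genes tested, 69.6% were called in GS9820-treated mice and 60.1% in vehicle mice. In the higher direction the background was 37.6% and 32.8%, and in the lower direction 32.1% and 27.2%. The median difference of the 10 members was 1.16 in GS9820-treated mice and 0.91 in vehicle mice, against 0.07 over all genes in each. Sorted-cell libraries were made with a TruSeq or a NuGEN kit, and which library got which is not stated. Kit may therefore coincide with cell type, and its part in these differences was not tested.

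**Figure D1:**
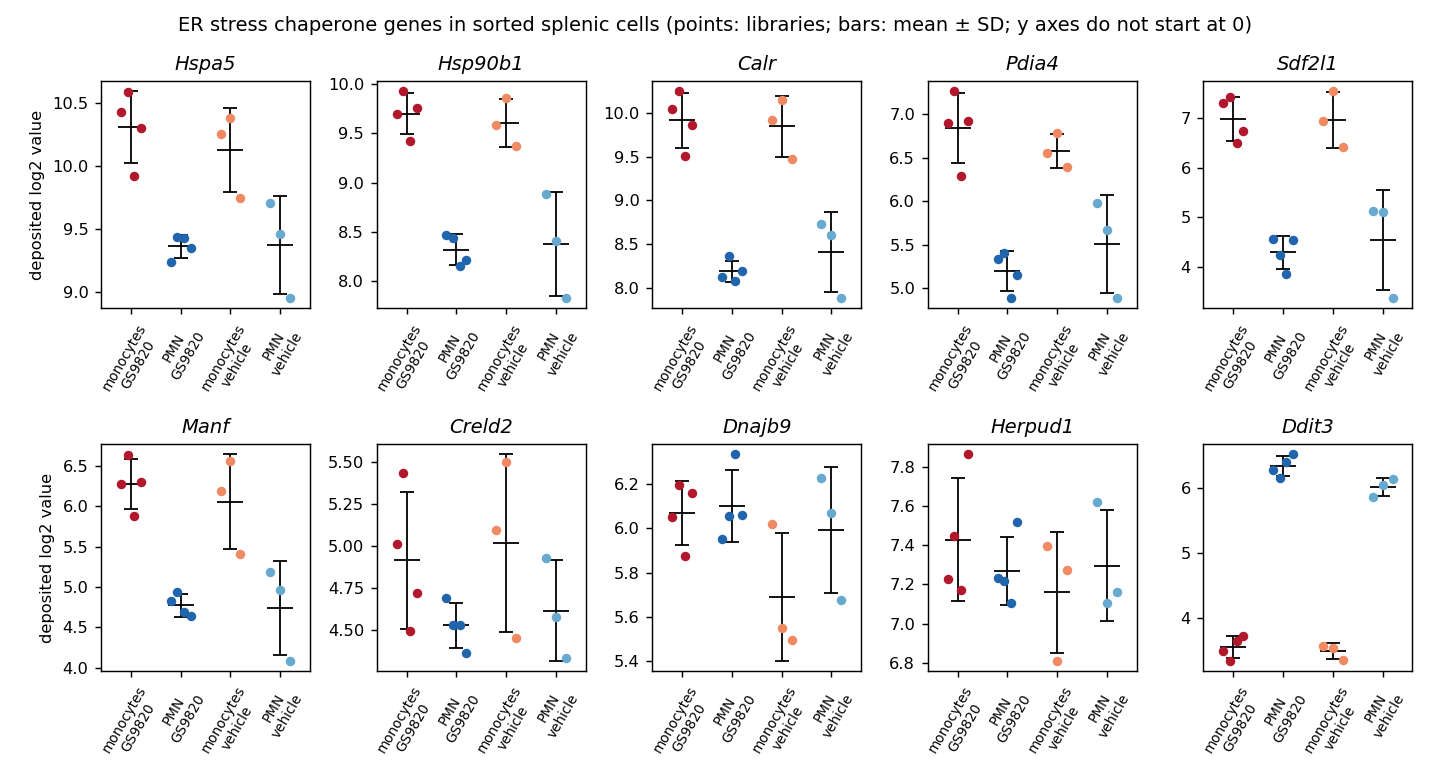
Deposited log2 values of the 10 genes in 14 sorted-cell libraries, with group on the horizontal axis. Points are libraries, bars are mean ± SD, and the y axes do not start at 0. Ddit3 lies at 3.35 to 3.74 in all monocyte libraries and at 5.86 to 6.52 in all PMN libraries, while Sdf2l1 lies the other way.

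Ddit3 (ENSMUSG00000025408, chr10:127290774-127296288, plus strand; positions of genes are from GENCODE M21 on GRCm38), whose product CHOP promotes cell death under prolonged ER stress, gave the clearest separation. Its log2 values were 3.51, 3.35, 3.65 and 3.74 in GS9820 monocytes, against 6.28, 6.15, 6.39 and 6.52 in GS9820 PMN. They were 3.58, 3.55 and 3.36 in vehicle monocytes, against 5.86, 6.05 and 6.13 in vehicle PMN. All monocyte libraries lay below all PMN libraries. The log2 difference was −2.77 ± 0.12 (SE; limma adjusted p = 5.85e-09) in GS9820-treated mice, 6.83-fold lower in monocytes. In vehicle mice it was −2.52 ± 0.14 (adjusted p = 9.07e-08), 5.72-fold lower. By unadjusted p Ddit3 ranked 19 and 24 among the 13968 genes. Ddit3 shares 68 bases with Mars on the opposite strand, and Mars differed the other way, by 0.33 and 0.42 in GS9820-treated and vehicle mice.

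Immediate early genes, which rise within minutes of cell handling, differed in the same direction as Ddit3. All 8 of the list were called lower in GS9820 monocytes than in GS9820 PMN and 7 of 8 in vehicle mice. Over all genes 32.1% and 27.2% were called lower. Their mean log2 level was 4.63 to 5.20 in GS9820 monocytes against 6.93 to 7.47 in GS9820 PMN, and 4.68 to 5.65 in vehicle monocytes against 6.85 to 7.41 in vehicle PMN. Their part in the Ddit3 difference was not tested.

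Sdf2l1 (ENSMUSG00000022769, chr16:17130138-17132383, minus strand), a partner of ER DnaJ co-chaperones, rose most among the members. Its values were 7.30, 7.43, 6.50 and 6.74 in GS9820 monocytes, against 4.55, 4.24, 3.85 and 4.55 in GS9820 PMN. In vehicle mice they were 6.95, 7.54 and 6.41 in monocytes, against 5.12, 5.11 and 3.37 in PMN. The groups did not overlap, and PMN vehicle 3 was the lowest library. The difference was 2.70 ± 0.38 (adjusted p = 4.54e-05) in GS9820-treated mice and 2.44 ± 0.44 (adjusted p = 0.000461) in vehicle mice.

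Calr (ENSMUSG00000003814, chr8:84841850-84846934, minus strand), the calcium-binding lectin chaperone calreticulin, was at 10.05, 10.25, 9.51 and 9.87 in GS9820 monocytes, against 8.12, 8.36, 8.08 and 8.19 in GS9820 PMN. In vehicle mice it was at 9.92, 10.15 and 9.47 in monocytes, against 8.73, 8.61 and 7.88 in PMN. All monocyte libraries were above all PMN libraries, by 1.73 ± 0.21 (adjusted p = 1.20e-05) under GS9820 and 1.44 ± 0.24 (adjusted p = 0.000255) under vehicle.

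Hspa5 (ENSMUSG00000026864, chr2:34771970-34777547, plus strand) encodes BiP, the HSP70 chaperone of the ER that also holds the stress sensors inactive. It was at 10.43, 10.59, 9.92 and 10.30 in GS9820 monocytes, against 9.24, 9.44, 9.43 and 9.36 in GS9820 PMN, and at 10.26, 10.39 and 9.75 in vehicle monocytes, against 9.71, 9.46 and 8.95 in vehicle PMN. The groups did not overlap, although vehicle monocyte 3 lay close to PMN vehicle 1. The difference was 0.95 ± 0.19 (adjusted p = 0.000712) under GS9820 and 0.75 ± 0.22 (adjusted p = 0.0101) under vehicle. Without PMN vehicle 3 the vehicle difference was 0.54 (adjusted p = 0.0507) and was no longer called. With array weights, which weight libraries by quality, it was 0.72 (adjusted p = 0.0829) and was not called.

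Hsp90b1 (ENSMUSG00000020048, chr10:86690209-86705509, minus strand) encodes GRP94, the HSP90 of the ER. It was higher by 1.38 ± 0.20 (adjusted p = 4.89e-05) in GS9820 monocytes, at 9.42 to 9.92 against 8.16 to 8.47 in GS9820 PMN, and by 1.23 ± 0.23 (adjusted p = 0.000541) in vehicle monocytes, at 9.37 to 9.86 against 7.83 to 8.88 in vehicle PMN. A pseudogene on the opposite strand, 1810014B01Rik, overlaps Hsp90b1 over 4598 bases and differed by 1.25 and 1.17. Whether the authors counted reads by strand is not given in the sources used here, so reads of the pair may be mixed. On the same strand Hsp90b1 overlaps Gm15344 over 977 bases and the miRNA gene Gm25745 over 133 bases. Gm15344 differed by 1.55 and 1.31, and Gm25745 by 2.07 and 1.85.

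Pdia4 (ENSMUSG00000025823, chr6:47796141-47813430, minus strand) encodes the disulfide isomerase ERp72. It was at 6.29 to 7.27 in GS9820 monocytes, against 4.88 to 5.40 in GS9820 PMN, a difference of 1.65 ± 0.24 (adjusted p = 5.55e-05). In vehicle mice it was at 6.40 to 6.79 in monocytes, against 4.88 to 5.98 in PMN, a difference of 1.07 ± 0.28 (adjusted p = 0.00504). The groups did not overlap in either treatment. With array weights the vehicle difference was 1.01 (adjusted p = 0.0734) and was not called. The miRNA gene Mir704 overlaps Pdia4 on the same strand over 77 bases and differed by 2.12 under GS9820 and 1.38 under vehicle.

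Manf (ENSMUSG00000032575, chr9:106838312-106891979, minus strand), a secreted ER resident factor that binds BiP, was at 5.88 to 6.64 in GS9820 monocytes against 4.63 to 4.94 in GS9820 PMN. It was at 5.41 to 6.57 in vehicle monocytes against 4.08 to 5.18 in vehicle PMN. The differences were 1.50 ± 0.27 (adjusted p = 0.000286) and 1.31 ± 0.31 (adjusted p = 0.00279), with no overlap. The annotated span of Manf overlaps Dcaf1 on the opposite strand over 42681 bases, and Dcaf1 differed by 0.21 and 0.27 (not called). It also overlaps Rbm15b on the same strand over 6511 bases, and Rbm15b differed by −0.09 and 0.10 (not called).

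The 6 members higher and the 1 lower were also the ones whose groups did not overlap. Of all genes, 37.4% lay wholly higher and 32.1% wholly lower in GS9820 monocytes, and 32.4% and 27.1% in vehicle monocytes. The other 3 members overlapped. Dnajb9 (ENSMUSG00000014905, chr12:44205559-44210326, minus strand), the BiP co-chaperone ERdj4, was at 5.88 to 6.20 in GS9820 monocytes against 5.95 to 6.34 in PMN, and its difference was −0.03 ± 0.15. Under vehicle its difference was −0.30 ± 0.17. Leaving out PMN vehicle 3 or monocyte vehicle 1 brought it to −0.46 and −0.47 (adjusted p = 0.0401 and 0.0339), called as lower.

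Herpud1 (ENSMUSG00000031770, chr8:94386438-94395377, plus strand), which brings substrates to the ER degradation machinery, differed by 0.16 ± 0.18 under GS9820 and −0.14 ± 0.21 under vehicle. Creld2 (ENSMUSG00000023272, chr15:88819646-88826683, plus strand), an ER protein with isomerase activity, differed by 0.39 ± 0.24 and 0.40 ± 0.27. Without monocyte vehicle 3 the vehicle difference of Creld2 was 0.68 (adjusted p = 0.0351), called as higher.

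Single libraries accounted for part of the spread. Monocyte vehicle 3 and monocyte GS9820 3 were each the lowest of their group in 9 of 10 members, PMN vehicle 3 was lowest in 8 of 10 and PMN vehicle 1 highest in 9 of 10. PMN vehicle 1 also had a plasma cell gene mean of 5.32 over 6 measured genes, against 3.57 and 3.63 in the other vehicle PMN libraries, with Mzb1 at 5.78. The vehicle median difference was 0.65 without PMN vehicle 3 and 1.11 without PMN vehicle 1. Lymphoid genes differed across the whole comparison. All 8 B cell genes were called lower in vehicle monocytes and 7 of 8 in GS9820 monocytes. Their mean log2 level was 2.00 to 3.38 in GS9820 monocytes against 4.12 to 4.53 in GS9820 PMN, and 2.09 to 3.38 in vehicle monocytes against 4.25 to 4.84 in vehicle PMN. Of 6 plasma cell genes, 2 were higher and 3 lower in GS9820 monocytes, and 0 higher and 4 lower in vehicle monocytes. Over all genes 37.6% were higher and 32.1% lower under GS9820, and 32.8% and 27.2% under vehicle. The part of B cell and plasma cell transcripts in the member values was not tested.

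Granulocyte precursor genes differed in the same direction as the 6 higher members. All 5 measured were called higher in monocytes in both treatments, against 37.6% of all genes under GS9820 and 32.8% under vehicle. Their mean log2 level was 7.89 to 8.67 in GS9820 monocytes against 2.00 to 4.83 in GS9820 PMN, and 8.18 to 10.15 in vehicle monocytes against 2.97 to 5.18 in vehicle PMN. Elane, neutrophil elastase, which is made in promyelocytes, was at 8.98 to 9.57 and 9.13 to 11.21 in the 2 monocyte groups. Within groups the libraries differed. Monocyte GS9820 3 had the highest precursor mean of its group, 8.67, and was lowest in 9 of 10 members. Monocyte vehicle 2 had the highest of its group, 10.15, and was highest in 7 of 10 members. The part of these transcripts in the chaperone differences was not tested.

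The rest of the ER machinery was described with lists of related genes. Over all genes 37.6% were called higher and 32.1% lower in GS9820 monocytes, and 32.8% and 27.2% in vehicle monocytes. Among other ER chaperones, 8 of 11 were higher and none lower in GS9820 monocytes, and 9 and 0 of 11 in vehicle monocytes. Canx, the lectin chaperone calnexin, was higher by 1.71 ± 0.14 and 1.52 ± 0.16, and Ppib, cyclophilin B, by 1.27 ± 0.11 and 1.20 ± 0.13. Dnajc3, a co-chaperone of BiP, was higher by 1.12 ± 0.09 and 0.92 ± 0.11. The list median was 1.12 under GS9820 and 0.92 under vehicle.

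Of 14 disulfide isomerases and oxidases, 9 were higher and 1 lower under GS9820, and 9 and 0 under vehicle. P4hb, the main protein disulfide isomerase, was higher by 1.91 ± 0.17 and 1.89 ± 0.19, and Pdia3 (ERp57) by 1.53 ± 0.13 and 1.35 ± 0.15. Pdia5 was higher by 3.65 ± 0.50 and 3.03 ± 0.57. All 17 measured genes of translocation and N-glycosylation were called higher in GS9820 monocytes and 15 of 17 in vehicle monocytes. For both of these lists the share of all genes called higher was 37.6% under GS9820 and 32.8% under vehicle. Rpn2 and Ddost, subunits of the oligosaccharyltransferase, were higher by 2.33 ± 0.14 and 2.27 ± 0.15 under GS9820 and by 2.10 ± 0.16 and 2.09 ± 0.17 under vehicle.

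For ER-associated degradation 5 of 15 genes were higher and 5 lower under GS9820, and 3 higher and 5 lower under vehicle. Over all genes 37.6% were higher and 32.1% lower under GS9820, and 32.8% and 27.2% under vehicle, so these counts are near the background. Vcp, the segregase that extracts substrates, was higher by 0.78 ± 0.08 and 0.66 ± 0.09, and Herpud2 was lower, at −0.94 ± 0.08 and −0.81 ± 0.10. Of 9 stress sensors and their factors, 1 was higher and 3 lower under GS9820, and 1 higher and 1 lower under vehicle. Eif2ak3, which encodes PERK, was lower in monocytes, at −0.91 ± 0.16 and −0.91 ± 0.19, and Atf6b was higher by 0.82 ± 0.08 and 0.60 ± 0.09.

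Of 12 genes downstream of PERK and ATF4, 3 were higher and 6 lower in monocytes under GS9820, and 3 higher and 5 lower under vehicle. The background was again 37.6% higher and 32.1% lower under GS9820, and 32.8% and 27.2% under vehicle. Sesn2, a stress-induced inhibitor of mTORC1 signalling, differed by −3.44 ± 0.19 and −3.57 ± 0.22, and Trib3, a pseudokinase that CHOP and ATF4 induce, by −2.27 ± 0.23 and −2.02 ± 0.26. Chac1, a glutathione-degrading enzyme, differed by −2.78 ± 0.46 under GS9820. Psat1, an ATF4 target in serine synthesis, went the other way, by 2.33 ± 0.29 and 2.60 ± 0.33. The list median was −1.07 under GS9820 and −0.78 under vehicle.

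**Figure D2:**
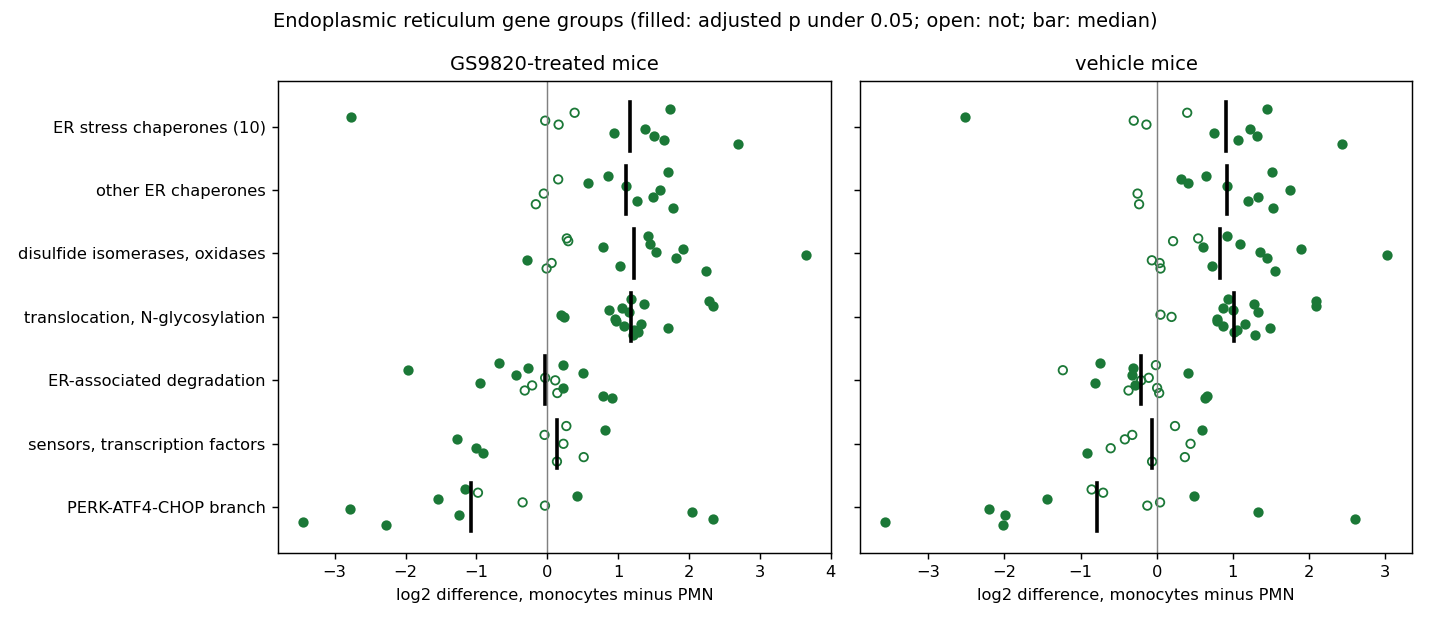
Log2 differences, monocytes minus PMN, of the 10 genes and of 6 related gene lists, with GS9820-treated mice on the left and vehicle mice on the right. Each point is a gene, filled where the adjusted p was under 0.05, and vertical bars are list medians. Translocation and N-glycosylation genes lie above 0 in both panels, and the PERK-ATF4-CHOP list spans both sides, with a median of −1.07 in GS9820-treated mice and −0.78 in vehicle mice.

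The effect of GS9820 within each sorted population rested on few libraries, and some intervals were wide. For Sdf2l1 the 95% interval was −1.13 to 0.66 in PMN and −0.87 to 0.92 in monocytes. In PMN none of the 10 was called, as was none of the 13968 genes (0%), and 1 member and 430 genes had an unadjusted p under 0.05. That member was Ddit3, at 6.28, 6.15, 6.39 and 6.52 in GS9820 PMN against 5.86, 6.05 and 6.13 in vehicle PMN. The groups did not overlap, as for 1.78% of all genes in that direction, and the other 9 members overlapped (1.99% of all genes lay wholly lower). The difference was 0.32 ± 0.13 (95% interval 0.04 to 0.60, limma adjusted p = 1). The lowest member difference was −0.32 ± 0.26 for Pdia4, which was −0.083 without PMN vehicle 1 and −0.63 without PMN vehicle 3.

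In monocytes none of the 10 members and none of all genes (0%) was called, and 1 member and 335 genes had an unadjusted p under 0.05. Dnajb9 was at 6.05, 6.20, 5.88 and 6.16 in GS9820 monocytes against 6.02, 5.55 and 5.50 in vehicle monocytes. One vehicle library lay within the GS9820 range. The difference was 0.38 ± 0.16 (95% interval 0.03 to 0.73, limma adjusted p = 0.996). The lowest was Creld2 at −0.10 ± 0.25, and 9 of 10 differences were positive, against 47.2% over all genes. The members vary together across these libraries, so the 9 are not separate observations. Their median difference was 0.14, and −0.015 without monocyte vehicle 3. Every member's groups overlapped in monocytes, where 1.47% of all genes lay wholly higher and 1.9% wholly lower.

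A test of whether GS9820 acted differently in monocytes and PMN called none of the 10 members and none of all genes (0%), with 0 members and 269 genes at an unadjusted p under 0.05. The difference of the effects was 0.58 ± 0.37 for Pdia4 (95% interval −0.21 to 1.38; 0.35 without PMN vehicle 1 and 0.90 without PMN vehicle 3) and −0.26 ± 0.18 for Ddit3 (95% interval −0.65 to 0.13).

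In whole tumours no member passed the threshold between GS9820 and vehicle. None of the 10 was called by limma, against 2.2% of all genes (0.878% higher and 1.33% lower), and 3 members had an unadjusted p under 0.05, as did 24.4% of all genes. These were Calr, Hspa5 and Creld2, each with a negative difference. Differences were negative in 7 of 10 members and positive in 3, where 45.3% of all genes had positive differences. The member median was −0.26, against −0.06 over all genes.

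**Figure D3:**
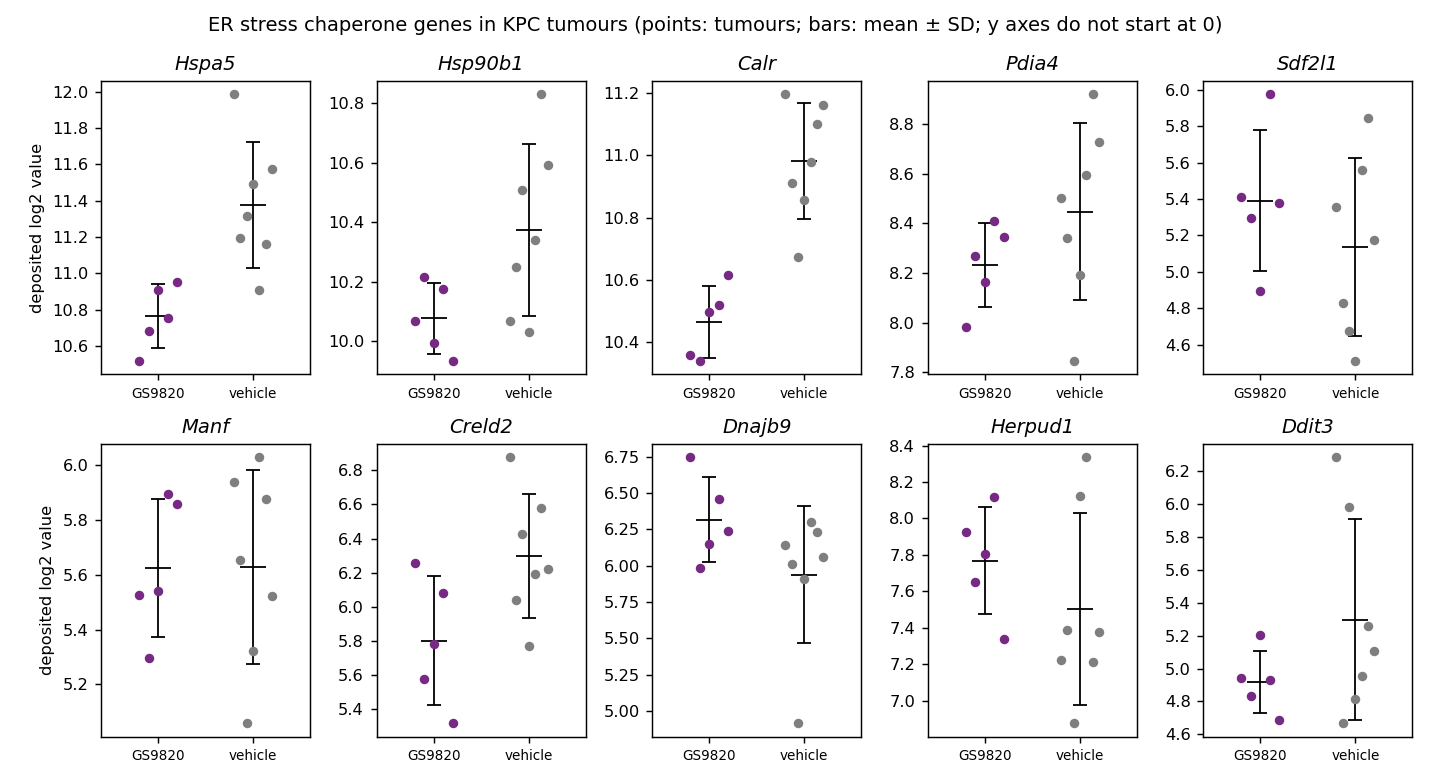
Deposited log2 values of the 10 genes in 5 tumours of GS9820-treated mice and 7 of vehicle mice. Points are tumours, bars are mean ± SD, and the y axes do not start at 0. Calr lies at 10.34 to 10.62 under GS9820 and at 10.67 to 11.19 under vehicle, without overlap.

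Calr was at 10.36, 10.34, 10.50, 10.52 and 10.62 in GS9820 tumours. In vehicle tumours its lowest value was 10.67, its median 10.98 and its highest 11.19. All GS9820 tumours lay below all vehicle tumours, as for 1.86% of all genes in that direction. The difference was −0.52 ± 0.17 (95% interval −0.88 to −0.15, limma adjusted p = 0.0980). It was −0.48 without vehicle tumour 1 and −0.52 without GS9820 tumour 3. With array weights the difference was −0.50 with an adjusted p of 0.0388, which is called, as are 17% of all genes in that fit.

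Hspa5 was at 10.52, 10.68, 10.91, 10.76 and 10.95 in GS9820 tumours, against a lowest value of 10.91, a median of 11.32 and a highest of 11.99 in vehicle tumours. One vehicle tumour lay within the GS9820 range. The difference was −0.61 ± 0.22 (95% interval −1.08 to −0.14, adjusted p = 0.117). It was −0.51 without vehicle tumour 1, which was highest, −0.65 without GS9820 tumour 3 and −0.41 with the acinar score as a covariate.

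Creld2 was at 6.26, 5.58, 5.78, 6.08 and 5.32 in GS9820 tumours, against 5.77, 6.22 and 6.88 as lowest, median and highest in vehicle tumours. The groups overlapped, with 3 GS9820 tumours above the lowest vehicle tumour. The difference was −0.50 ± 0.21 (95% interval −0.96 to −0.04, adjusted p = 0.177).

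The other members overlapped widely. Hsp90b1 differed by −0.30 ± 0.18 and Pdia4 by −0.21 ± 0.19. Dnajb9 differed by 0.38 ± 0.23, Herpud1 by 0.26 ± 0.25 and Sdf2l1 by 0.25 ± 0.25. Single tumours moved these values. Dnajb9 was at 0.21 without vehicle tumour 3, Herpud1 at 0.16 without vehicle tumour 3 and 0.40 without vehicle tumour 5. Sdf2l1 was at 0.11 without GS9820 tumour 4 and 0.11 with the acinar score as a covariate. Manf averaged 5.62 ± 0.25 in GS9820 tumours and 5.63 ± 0.35 in vehicle tumours (SD, n = 5 and 7), a difference with a 95% interval of −0.42 to 0.41.

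Ddit3 was at 4.94, 4.83, 5.21, 4.93 and 4.69 in GS9820 tumours, against 4.67, 5.11 and 6.28 as lowest, median and highest in vehicle tumours. Only vehicle tumours 1 and 3, at 6.28 and 5.98, stood far above the GS9820 range. The difference was −0.38 ± 0.27 (adjusted p = 0.412). It was −0.21 without vehicle tumour 1 and −0.14 (adjusted p = 0.844) with the acinar score as a covariate.

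Of the related lists in tumours, a single gene was called. Ero1l encodes the ER oxidase that recharges disulfide isomerases and is also known as a hypoxia-induced gene. It was at 6.17, 4.93, 5.56, 5.63 and 5.21 in GS9820 tumours, and at 6.56 or above in all vehicle tumours. The difference was −1.96 ± 0.29 (limma adjusted p = 0.0181). It was the 1 lower gene of 15 disulfide isomerases and oxidases. The call was lost with the acinar score as a covariate (−1.72, adjusted p = 0.0747) and without GS9820 tumour 4 (−1.996, adjusted p = 0.0683), where in each case 0 of all genes were called.

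None was called of 9 sensors and factors, 11 other chaperones, 15 degradation genes, 17 translocation and glycosylation genes and 12 PERK-ATF4-CHOP genes. At an unadjusted p under 0.05 were 2, 2, 7, 2 and 3 genes of these lists, in the same order, beside 24.4% of all genes. Degradation genes had positive differences in 12 of 15 (median 0.36), and translocation and glycosylation genes negative ones in 15 of 17 (median −0.17). Among all genes 45.3% of differences were positive. Xbp1, the factor downstream of IRE1, differed by 0.84 ± 0.36 (adjusted p = 0.176) and Eif2ak3 by 0.79 ± 0.26 (adjusted p = 0.0971). Both were called without vehicle tumour 5 (1.09 and 0.87, adjusted p = 0.0284 and 0.0492) and with array weights (1.13 and 0.91, adjusted p = 0.0185 and 0.0141). In those 2 fits 1690 and 2764 of all genes were called, against 359 in the main fit. Eif2ak3 was also called without GS9820 tumour 1 (0.99, adjusted p = 0.0467). Other alternatives lowered the differences without a call. Xbp1 was at 0.49 with the acinar score as a covariate and 0.72 without GS9820 tumour 5. Eif2ak3 was at 0.61 without GS9820 tumour 2. The acinar score is a mean over 23 acinar genes, with enzymes and transcription factors among them. It was 5.12 to 9.82 in GS9820 tumours and 2.09 to 9.56 in vehicle tumours. In the comparison of GS9820 with vehicle it entered only as a covariate, in an alternative fit.

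Marker genes of other cells also differed between GS9820 and vehicle tumours, although few were called. All 10 islet genes had positive differences in GS9820 tumours, all 10 with an unadjusted p under 0.05 and 3 called higher, and their mean log2 level was 5.50 to 8.85 in GS9820 tumours against 0.19 to 7.04 in vehicle tumours. All 9 measured mature neutrophil genes had negative differences (0 called by limma, 1 with an unadjusted p under 0.05), and their mean level was 1.99 to 4.40 in GS9820 tumours against 2.76 to 6.69 in vehicle tumours. All 23 acinar genes had positive differences (median 2.50), with 1 called higher and 2 at an unadjusted p under 0.05. Over all genes 2.2% were called, 24.4% had an unadjusted p under 0.05 and 45.3% had positive differences. The part of islet and neutrophil transcripts in the tumour differences of the members and of the related lists was not tested.

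The acinar content of the tumours varied widely. Tumours above the midpoint of the score range, 5.95, were taken as acinar-rich, which gave 7 tumours (4 of GS9820-treated and 3 of vehicle mice), and 5 tumours lay below it. The members were tested against the score itself, with a term for treatment. By limma 0 of the 10 had an unadjusted p under 0.05, against 8.35% of all genes. None of the 10 was called, against 0.411% of all genes called. Of these 67 genes, which include genes of the score itself, 66 rose (0.405%) and 1 fell (0.00614%) with the score. The median member slope was 0.02 log2 units per unit of score, and its sign turned without vehicle tumour 6, at −0.0087. All 8 carcinoma and duct epithelium genes had positive slopes (median 0.39), against 44.8% of all genes. By limma 6 of them had an unadjusted p under 0.05 and 0 were called. All 4 measured erythroid genes had negative slopes, each at an unadjusted p under 0.05. Vehicle tumour 1, with an epithelium mean of 3.67, had a score of 2.32. The part of these cells in the member slopes was not tested.

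**Figure D4:**
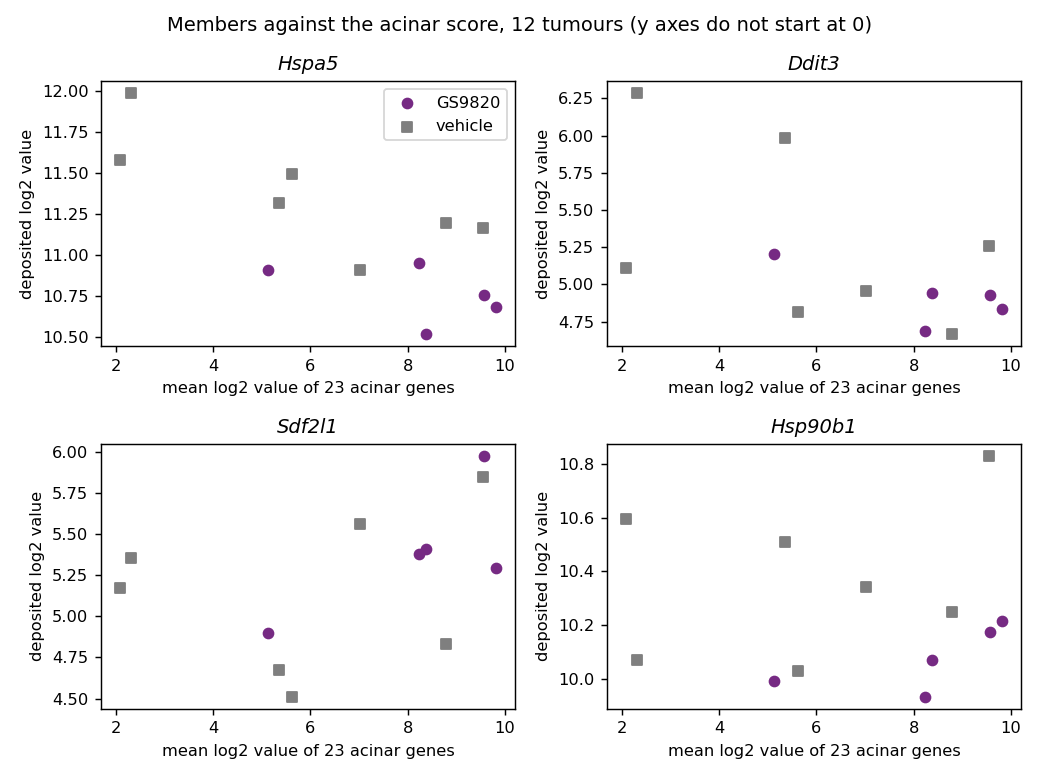
Deposited log2 values of Hspa5, Ddit3, Sdf2l1 and Hsp90b1 against the mean log2 value of 23 acinar genes in 12 tumours. Circles are GS9820 tumours and squares vehicle tumours, and the y axes do not start at 0. The highest Hspa5 values, 11.99 and 11.57, belong to the 2 tumours with the lowest scores.

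Hspa5 had a slope of −0.08 ± 0.04 per unit of score (limma adjusted p = 0.598). It averaged 10.88 ± 0.25 in acinar-rich tumours and 11.46 ± 0.39 in the others (SD, n = 7 and 5), a description without a test. The 2 tumours of lowest score, vehicle 1 and vehicle 7, held 11.99 and 11.57.

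Ddit3 had a slope of −0.10 ± 0.05 (limma adjusted p = 0.629), with 4.90 ± 0.20 in acinar-rich tumours and 5.48 ± 0.62 in the others. Without vehicle tumour 1 its slope was −0.05 and that of Hspa5 −0.06. In vehicle tumours alone the slopes of Hspa5 and Ddit3 were −0.09 and −0.11.

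Sdf2l1 sloped upward by 0.06 ± 0.05 (limma adjusted p = 0.772), at 5.47 ± 0.38 in acinar-rich tumours and 4.92 ± 0.35 in the others. Hsp90b1 had a slope of 0.03 ± 0.04 (limma adjusted p = 0.817), at 10.26 ± 0.28 in acinar-rich tumours and 10.24 ± 0.29 in the others. Without vehicle tumour 6 the slope was 0.016 for Sdf2l1 and 0.0039 for Hsp90b1.

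Of the related lists, 1 gene was called against the score. Pdia2, the isomerase of pancreatic acinar cells, rose by 1.12 ± 0.07 per unit (limma adjusted p = 2.40e-06). Derl3, a degradation factor found in secretory cells, had a slope of 0.33 ± 0.07 (adjusted p = 0.118), and 0.37 (adjusted p = 0.0184) with no term for treatment. Of 12 PERK-ATF4-CHOP genes none was called, while 10 had negative slopes and 2 positive (median −0.08). By limma 6 of the 12 had an unadjusted p under 0.05, beside 8.35% of all genes. Atf4 had a slope of −0.12 ± 0.04 and Cebpb of the same list −0.16 ± 0.06 (limma adjusted p = 0.552 for each).

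The members varied together in sorted cells more than in tumours. After removal of the group means, the correlation of each member with the mean of the others over 14 sorted-cell libraries was 0.63 to 0.94 for 8 members, 0.18 for Herpud1 and −0.37 for Ddit3. Over the 12 tumours it was 0.44 to 0.80 for 6 members, namely Sdf2l1, Calr, Manf, Pdia4, Dnajb9 and Creld2. It was between −0.08 and 0.06 for Hspa5, Hsp90b1, Herpud1 and Ddit3. These correlations describe libraries that share one distribution of values, and carry no test.

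The genes whose pattern was most like the members' mean were sought by the same measure. Over 14 sorted-cell libraries they were Slc35b1, an ER transporter of the nucleotide sugar carrier family (Pearson r = 0.95), Gcn1l1, Spcs2, a subunit of signal peptidase, Sfpq, 1810014B01Rik, Tmem201, Zranb2 and Hyou1, an ER chaperone (r = 0.88). Over 12 tumours they were Syt13 (r = 0.94), Srp54a and Srp54c, copies of a signal recognition particle subunit, Rpn1, Gm45837, Mif4gd, Gmfg and Arl6ip1 (r = 0.85). Since 1810014B01Rik overlaps Hsp90b1, its likeness may come from shared reads, which was not tested.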

How the data were processed

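Values were analysed for 12 tumour and 14 sorted-cell libraries, and no read was aligned or counted anew. The deposited log2 values were named log2 RPKM by the authors. Per the submitters' processing notes TopHat2, STAR, limma and the build mm10 were used, with no version or role given. Per the labels' protocols tumour libraries were stranded and depleted of ribosomal RNA, and for sorted cells a TruSeq or a NuGEN kit was used, with no statement of which library got which. Values share nearly one distribution within each set, so depth and counts are unknown, and no interval or floor from counts is given.

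Symbols came from GENCODE M21 and promoters from RefSeq (GRCm38.p6). A gene entered the tests if 5 or more tumours, or 3 or more sorted-cell libraries, had a log2 value of 0 or higher. Tests used limma 3.58.1 (lmFit, eBayes with trend, two-sided) in R 4.3.3, with Benjamini-Hochberg adjustment over all genes kept in each of 7 comparisons and a threshold of 0.05. Alternatives were array weights, the filter, normalization, the acinar covariate, a replicate block and leaving out each library.

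The members and the lists were chosen with earlier results of these data known. Named genes are all members, and per related list up to 4 called genes of smallest adjusted p, or otherwise up to 2 of smallest p, from which examples are given. The 8 genes most like the members were chosen by correlation with the mean of their standardized values. Scripts were tested on simulated data.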

Additional observations from a re-analysis of the deposited data

Results flagged for a closer look

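Of 40 combinations of a member and a group of 4 to 10 libraries tested for a library far from the rest, 1 stood out, and chance marks about 1 in 20. Dnajb9 was at 4.91 in vehicle tumour 3, against 5.91 to 6.30 in the other 6 vehicle tumours. Its gap to the nearest tumour was 0.714 of the range of the group.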

How the results depend on the processing

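Alternatives were no filter and a stricter filter, log2 of the linear value plus 1, median centring, no mean trend, array weights, a replicate block, the acinar covariate or no treatment term, vehicle tumours only, and leaving out each library. The count of members called was the same in all of these, except that array weights called 1 member, Calr, in tumours and 5 instead of 7 between monocytes and PMN in vehicle mice, where 8 were called without monocyte vehicle 1 or 3. The median member difference between monocytes and PMN in vehicle mice ran from 0.65 to 1.11 over the libraries left out. Under array weights Hspa5 (0.72, adjusted p = 0.0829) and Pdia4 (1.01, adjusted p = 0.0734) were the 2 that lost their calls.

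Differences near 0 changed sign. Manf in tumours was 0.11 with array weights and 0.024 with the replicate block, and −0.10 to 0.077 over tumours left out. Herpud1 in vehicle mice ran from −0.25 to 0.040, Dnajb9 between monocytes and PMN under GS9820 from −0.080 to 0.049, and Creld2 in monocytes from −0.38 to 0.14. The cause was not tested.

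The count of all genes called between GS9820 and vehicle tumours, 359, was 2764 with array weights, 166 with the replicate block, 0 with the acinar covariate and 0 to 1690 over tumours left out. For the acinar score, 67 genes were called, 14 with the replicate block and 56 to 123 over tumours left out. The correlation of deviations between same-numbered libraries was −0.18 to 0.26 in tumours. It was 0.085 to 0.46 for vehicle monocytes and PMN and −0.22 to 0.45 for GS9820 monocytes and PMN. In tumours 0 of 5 numbers correlated best with themselves. For monocytes and PMN 3 of 3 did in vehicle mice and 2 of 4 in GS9820-treated mice. The labels do not say whether same-numbered libraries share a mouse, so the main fit was not blocked. The replicate block left 0 members called in tumours and 7 in each monocyte comparison, with medians of −0.11 in tumours, −0.025 for the acinar score (against 0.02 without the block), 0.91 in vehicle mice and 1.16 under GS9820, and called none in the other comparisons. Pdia2 was at 0.83 per unit of score with the block (limma adjusted p = 0.0900) and was not called. Since depth is unknown, the precision of low values could not be set from counts.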
